A study of Bos taurus with 12 samples.

Results

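The genes described here are components of WNT signalling and transcription factors that pattern the uterus, followed through early cycle endometrium of Simmental heifers. Of 10 genes chosen by name (WNT5A, SFRP1, SFRP2, DKK1, FZD1, MSX1, HOXA10, HOXA11, FOXL2 and SOX17), 7 were represented by probe sets carrying exactly that symbol in the platform annotation, out of 9155 genes named on the array. These 7 genes were measured by 11 of the 24016 probe sets tested. The WNT genes were SFRP1, SFRP2, DKK1 and FZD1, and the patterning genes were MSX1, HOXA10 and FOXL2. DKK1, FZD1, MSX1 and FOXL2 had 2 probe sets each, called the first and the second below in the order of their identifiers. WNT5A, HOXA11 and SOX17 were matched to no probe set by symbol, gene identifier or accession and were not analysed here.

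The 12 arrays each held RNA from 1 pool of endometrium, with 3 pools in each of 4 groups: receptive on day 7, non-receptive on day 7, receptive on day 3 and non-receptive on day 3 of the estrous cycle. Receptivity was assigned by the submitters from pregnancy success after transfer of embryos produced in vivo, and the tissue was taken before transfer. No hormone, drug or genetic manipulation was named for any group, and neither the number of animals in a pool nor the age of the animals was given. It is not stated that pools came from separate animals, so the p-values measure only the spread between pools, which may in part be technical.

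WNT proteins are secreted ligands that bind Frizzled receptors, with LRP5 or LRP6 as co-receptors, and in the canonical branch this stabilises beta-catenin, which drives target genes together with TCF/LEF factors. Secreted Frizzled-related proteins (SFRP) bind WNT ligands outside the cell, whereas Dickkopf proteins such as DKK1 block the LRP co-receptors. In the uterus these signals pass between stroma and epithelium, and homeobox factors such as HOXA10 and MSX1 set regional identity during development and stay active in the adult organ.

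Values are log2 signals as deposited, so that 1 unit is a doubling of signal, and 0 is the lowest value the table holds. Array medians lay between 6.64 and 6.76, at 6.68 to 6.76 on day 3 and 6.64 to 6.68 on day 7. Between 257 and 450 probe sets per array stood at 0. The actin control signal at the 3' end exceeded that at the 5' end by a gap, a measure of RNA length. It was 0.82 to 3.11 in the 6 receptive pools and 0.02 to 0.93 in the 6 non-receptive pools. On each day every receptive pool had a wider gap than every non-receptive pool. By day the gap averaged 1.31 on day 3 and 0.69 on day 7, with overlapping ranges of 0.48 to 3.11 and 0.02 to 1.25. Markers of simple epithelium (12 genes, among them EPCAM and keratins) were high on average in all pools, with a mean log2 signal of 10.27 to 10.72. KRT8 was the lowest of them, at a mean of 6.28, below the array medians. Non-receptive day 3 pool 3 stood apart from the other day 3 pools, with a mean of 7.66 over 14 stromal fibroblast markers, against 8.46 to 9.34 in the other 5 day 3 pools.

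**Figure D1:**
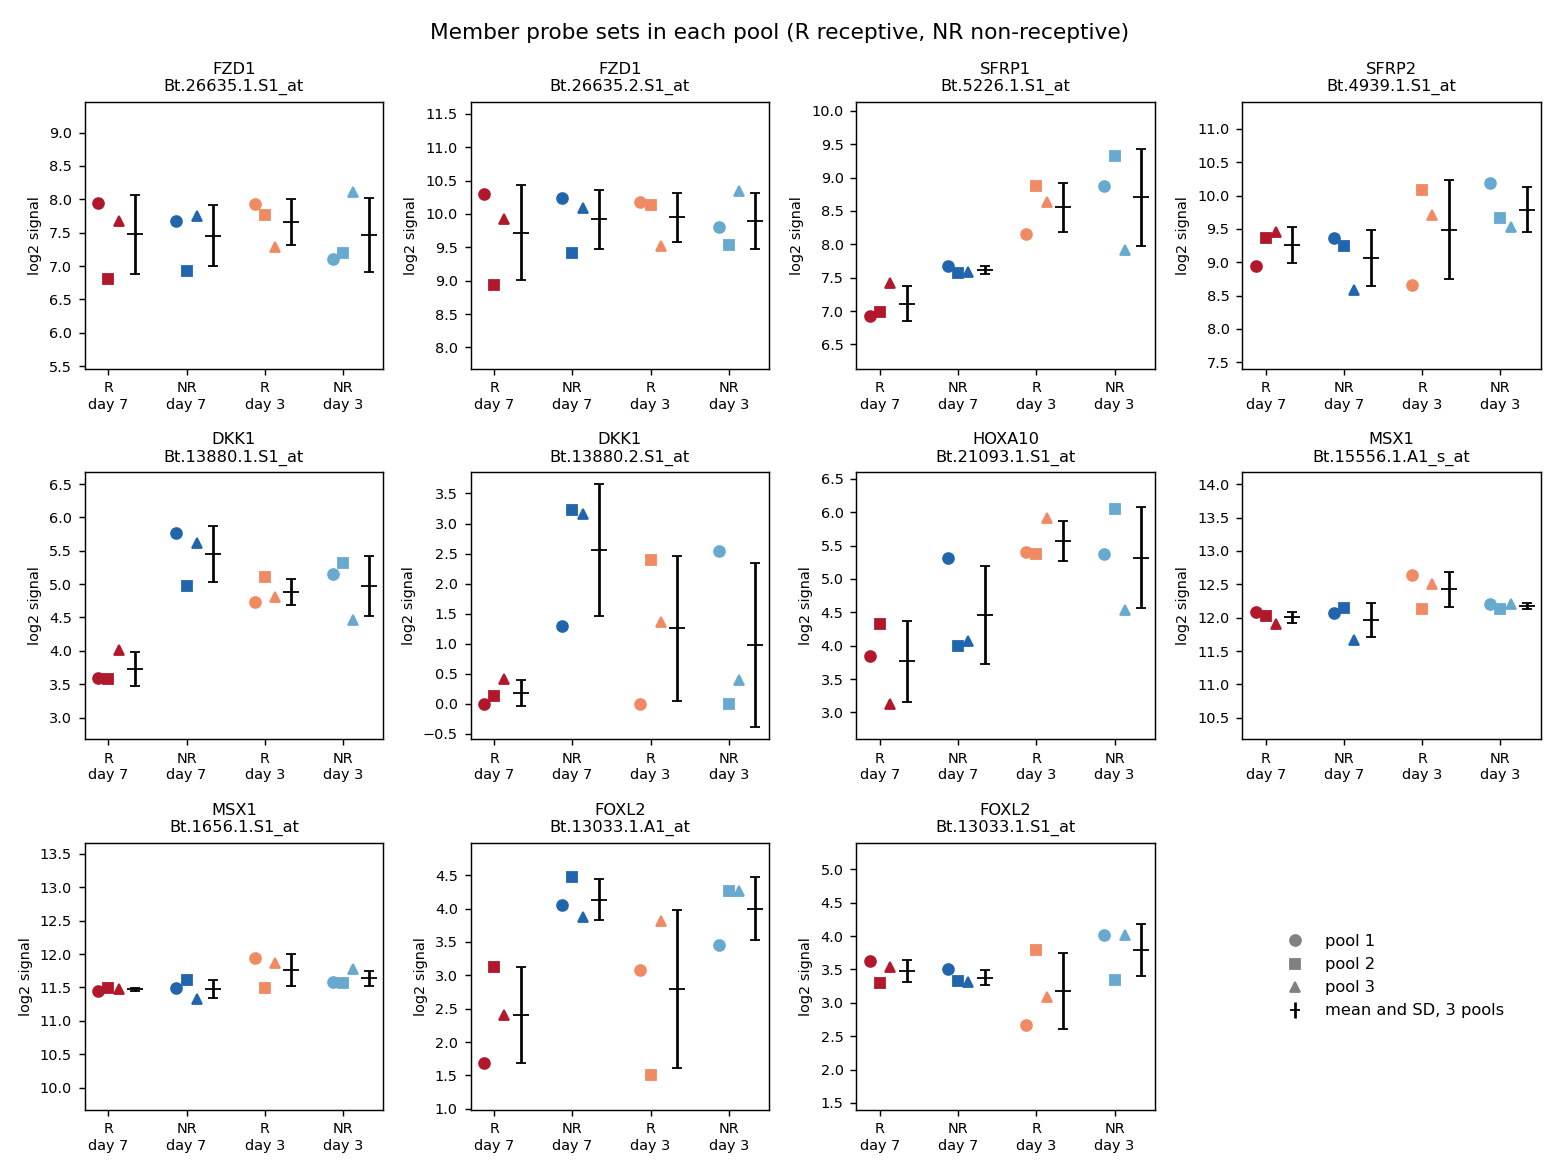
Log2 signal (vertical axis) of each of the 11 probe sets in the receptive (R) and non-receptive (NR) pools of day 7 and day 3, with a symbol for the pool number and the mean with SD of 3 pools beside each group. All 6 day 7 pools of SFRP1 lie below all 6 day 3 pools, while the first DKK1 probe set is lowest in the 3 receptive day 7 pools, at 3.58 to 4.02.

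The first question was how these genes differed between day 7 and day 3. SFRP1 and HOXA10 fell by day 7, to about 0.42 and 0.40 of the day 3 signal, and no other probe set of the 11 passed. Averaged over receptivity, the days overlapped for FZD1, SFRP2, DKK1 and FOXL2, and both MSX1 probe sets were slightly lower on day 7 without passing. For the first DKK1 probe set this average joins changes of opposite sign, -1.15 in receptive and 0.48 in non-receptive endometrium, neither of which passed. Passing means an adjusted p (Benjamini-Hochberg, from limma, over the 24016 probe sets) under 0.05. With both receptivity groups averaged, 14.2% of all probe sets passed, and 9.44% passed with a lower signal on day 7. Against this, 2 of the 11 member probe sets passed, both lower, and 4 had an unadjusted p under 0.05, as 30.8% of all probe sets did. The log2 change was negative for 10 of the 11 probe sets, with a median of -0.23, against a median of -0.05 over all probe sets, of which 56.6% were negative.

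FZD1 is a receptor for WNT ligands. Its first probe set had log2 signals of 7.95, 6.81 and 7.67 in receptive and 7.68, 6.93 and 7.75 in non-receptive pools of day 7, against 7.93, 7.77 and 7.28 in receptive and 7.10, 7.20 and 8.11 in non-receptive pools of day 3. The second had 10.30, 8.93 and 9.93 in receptive and 10.24, 9.42 and 10.09 in non-receptive pools of day 7, against 10.18, 10.14 and 9.52 in receptive and 9.80, 9.53 and 10.35 in non-receptive pools of day 3. All 4 groups overlapped in both probe sets, and both placed receptive day 7 pool 2 lowest and non-receptive day 3 pool 3 highest. The log2 change from day 3 was -0.10 ± 0.26 (SE, n = 6 pools per day, adjusted p = 0.839 in limma) for the first and -0.10 ± 0.27 (adjusted p = 0.838) for the second, with 95% intervals of -0.69 to 0.49 and -0.70 to 0.49.

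SFRP1, a secreted WNT antagonist, gave the clearest difference. Its log2 signals were 6.93, 6.99 and 7.42 in receptive and 7.68, 7.57 and 7.59 in non-receptive pools of day 7, against 8.15, 8.87 and 8.64 in receptive and 8.88, 9.32 and 7.91 in non-receptive pools of day 3. Every day 7 pool lay below every day 3 pool, which held for 7.72% of all probe sets in either direction and for 5.16% with day 7 lower. The signal averaged 7.36 ± 0.32 on day 7 and 8.63 ± 0.52 on day 3 (SD, n = 6 pools each), a log2 change of -1.27 ± 0.23 (SE, adjusted p = 0.00825 in limma). SFRP1 passed under all 19 other settings for which it was fitted, with adjusted p-values of 0.00247 to 0.0263.

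SFRP2, a close relative of SFRP1, did not pass. Its log2 signals were 8.95, 9.36 and 9.46 in receptive and 9.36, 9.25 and 8.58 in non-receptive pools of day 7, against 8.66, 10.09 and 9.71 in receptive and 10.18, 9.66 and 9.53 in non-receptive pools of day 3. The 3 non-receptive day 7 pools lay below the 3 non-receptive day 3 pools, whereas in receptive endometrium day 3 pool 1 was below all day 7 pools. The log2 change averaged -0.48 ± 0.25 (SE, n = 6 pools per day, adjusted p = 0.238 in limma). Receptive day 3 pool 1 also had the widest actin gap, at 3.11. With the actin gap as a covariate the change of SFRP2 was -0.94 and passed (adjusted p = 0.0127). This was the only 1 of 19 other settings in which it passed. Without receptive day 3 pool 1 the change was -0.685 and did not pass (adjusted p = 0.057). The part of RNA length in these values was not tested.

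DKK1 blocks the LRP co-receptors. Its first probe set had log2 signals of 3.59, 3.58 and 4.02 in receptive and 5.76, 4.97 and 5.62 in non-receptive pools of day 7, against 4.73, 5.10 and 4.81 in receptive and 5.15, 5.31 and 4.46 in non-receptive pools of day 3. The day 3 pools of both receptivity groups overlapped, while the receptive day 7 pools lay lower and most of the non-receptive day 7 pools higher than these. Averaged over receptivity, the change was -0.34 ± 0.19 (SE, n = 6 pools per day, adjusted p = 0.262 in limma). The second probe set had 0, 0.13 and 0.42 in receptive and 1.30, 3.22 and 3.16 in non-receptive pools of day 7, against 0, 2.40 and 1.36 in receptive and 2.54, 0 and 0.39 in non-receptive pools of day 3. It was at the floor in 3 of the 12 pools, where values hold no order, so its fitted differences are not a measure of size.

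HOXA10, a homeobox factor required for uterine identity and for decidual responses in the mouse, was the only patterning gene to pass. Its log2 signals were 3.84, 4.33 and 3.12 in receptive and 5.31, 4.0 and 4.07 in non-receptive pools of day 7, against 5.41, 5.38 and 5.91 in receptive and 5.38, 6.04 and 4.53 in non-receptive pools of day 3. The days overlapped only through non-receptive day 7 pool 1 and non-receptive day 3 pool 3. All signals were low, at no more than 6.04 against array medians of at least 6.64. The signal averaged 4.11 ± 0.71 on day 7 and 5.44 ± 0.53 on day 3 (SD, n = 6 pools each), a log2 change of -1.33 ± 0.33 (SE, adjusted p = 0.0271 in limma). The call was not firm, since the adjusted p was 0.0555 without receptive day 7 pool 3, 0.0592 on omission of pool 3 of non-receptive day 7, 0.0637 on omission of pool 3 of receptive day 3, 0.0641 and 0.0573 when pool 1 or pool 2 of non-receptive day 3 was omitted, and 0.0688 with the actin gap as a covariate. The log2 change stayed between -1.54 and -1.15 when any 1 pool was left out.

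MSX1, a homeobox factor of the uterine epithelium in the mouse, had high signals that varied little. The first probe set, of a type whose probes match several related transcripts, had 12.08, 12.02 and 11.91 in receptive and 12.07, 12.14 and 11.67 in non-receptive pools of day 7, against 12.64, 12.13 and 12.50 in receptive and 12.21, 12.13 and 12.20 in non-receptive pools of day 3. The second probe set had 11.44, 11.49 and 11.48 in receptive and 11.49, 11.61 and 11.33 in non-receptive pools of day 7, against 11.94, 11.49 and 11.86 in receptive and 11.58, 11.57 and 11.77 in non-receptive pools of day 3. In both, receptive day 3 pools 1 and 3 were the highest of the 12. The log2 changes were -0.32 ± 0.11 (SE, n = 6 pools per day, adjusted p = 0.0867 in limma) and -0.23 ± 0.10 (adjusted p = 0.138). Both passed only when receptive day 3 pool 2 was left out (-0.39, adjusted p = 0.0399, and -0.30, adjusted p = 0.0483), apart from the first with a trended and robust spread estimate (adjusted p = 0.0466).

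FOXL2, a forkhead factor best known from the ovary, gave low signals. The first probe set had 1.69, 3.12 and 2.41 in receptive and 4.05, 4.47 and 3.87 in non-receptive pools of day 7, against 3.08, 1.5 and 3.82 in receptive and 3.46, 4.27 and 4.27 in non-receptive pools of day 3. The second had 3.62, 3.30 and 3.53 in receptive and 3.50, 3.32 and 3.31 in non-receptive pools of day 7, against 2.67, 3.79 and 3.08 in receptive and 4.02, 3.34 and 4.01 in non-receptive pools of day 3. Days overlapped in both, and the changes were -0.13 ± 0.39 (SE, n = 6 pools per day, adjusted p = 0.859 in limma) and -0.06 ± 0.19 (adjusted p = 0.883). The sign of the second turned under both rescalings of the arrays, to 0.01 each.

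**Figure D2:**
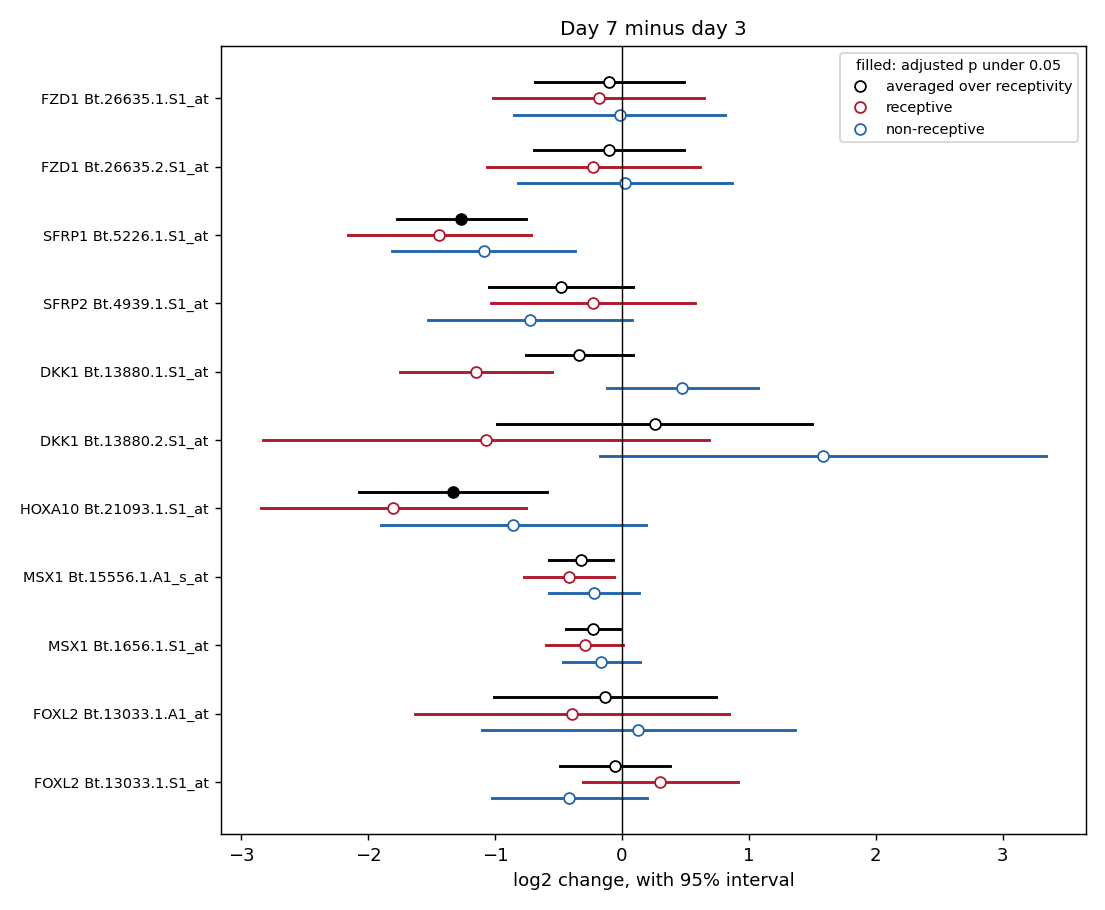
Log2 change, day 7 minus day 3 (horizontal axis, with 95% intervals), of each of the 11 probe sets, averaged over receptivity and within receptive and non-receptive endometrium. Filled symbols mark an adjusted p under 0.05, which only SFRP1 (-1.27) and HOXA10 (-1.33) reached, both averaged over receptivity.

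Within receptive endometrium alone, with 3 pools per day, none of the 11 probe sets passed, where 1.96% of all probe sets did, and 4 had an unadjusted p under 0.05, where 20.4% of all probe sets did. The changes in receptive endometrium were -1.44 ± 0.32 for SFRP1 (SE, adjusted p = 0.0535 in limma), -1.80 ± 0.47 for HOXA10 (adjusted p = 0.0736) and -1.15 ± 0.27 for the first DKK1 probe set (adjusted p = 0.0573). In these 3 and in the first MSX1 probe set all receptive day 7 pools lay below all receptive day 3 pools, which was the case in one direction or the other for 25.2% of all probe sets. SFRP1 and DKK1 lay close to the threshold. In limma both passed once non-receptive day 3 pool 3 was omitted (adjusted p = 0.0273 and 0.043). SFRP1 also passed on omission of pool 2 of that group (0.0479), and DKK1 on omission of pool 2 of non-receptive day 7 (0.0414). These pools enter this comparison only through the shared estimate of the spread.

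Within non-receptive endometrium none of the 11 passed, where 2.48% of all probe sets did, and 1 had an unadjusted p under 0.05, against 20.5% of all. SFRP1 came nearest, with a log2 change of -1.09 ± 0.32 (SE, n = 3 pools per day, adjusted p = 0.102 in limma), and it passed without non-receptive day 3 pool 3 (-1.49, adjusted p = 0.0248). HOXA10 had -0.86 ± 0.47 (adjusted p = 0.335) and SFRP2 -0.73 ± 0.36 (adjusted p = 0.291). The first DKK1 probe set had 0.48 ± 0.27 (adjusted p = 0.348), of opposite sign to its change in receptive endometrium. The days were apart for SFRP1 and SFRP2, that is for 2 of the 11, against 25.9% of all probe sets.

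The second question was how receptive differed from non-receptive endometrium. None of the 11 probe sets passed in any of the comparisons by receptivity, and hardly any other probe set did. The largest differences among the members were in DKK1 on day 7 and in the first FOXL2 probe set, both lower in receptive pools. The second FOXL2 probe set differed little on day 7 (0.11), as did the first DKK1 probe set on day 3 (-0.09). Averaged over days, 0.00416% of all probe sets passed, which is 1 probe set. Of the 11, 2 had an unadjusted p under 0.05, against 7.38% of all probe sets. On day 7 the actin gap was 0.82 to 1.25 in receptive and 0.02 to 0.63 in non-receptive pools. On both days RNA length and receptivity cannot be told apart in these comparisons.

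On day 7 the first DKK1 probe set averaged 3.73 ± 0.25 in receptive and 5.45 ± 0.42 in non-receptive endometrium (SD, n = 3 pools each). The difference was -1.72 ± 0.27 on the log2 scale (SE, unadjusted p = 7.8e-05, adjusted p = 0.312 in limma). The receptive day 7 signals were low, at no more than 4.02 against array medians of at least 6.64. The second DKK1 probe set, in part at the floor, was at 0 to 0.42 in receptive and 1.30 to 3.22 in non-receptive pools (adjusted p = 0.821 in limma). On day 3, by contrast, the first probe set averaged 4.88 ± 0.19 in receptive and 4.97 ± 0.45 in non-receptive endometrium, with a difference of -0.09 ± 0.27 and a 95% interval of -0.69 to 0.50. Averaged over days the difference was -0.91 ± 0.19 (adjusted p = 0.482 in limma).

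The 2 FOXL2 probe sets differed in what they showed. On day 7 the first probe set averaged 2.41 ± 0.71 in receptive and 4.13 ± 0.31 in non-receptive endometrium (SD, n = 3 pools each), a difference of -1.72 ± 0.55 (SE, unadjusted p = 0.0112, adjusted p = 0.821 in limma). On day 3 it averaged 2.80 ± 1.19 in receptive and 4.0 ± 0.47 in non-receptive endometrium, and over both days the difference was -1.46 ± 0.39 (unadjusted p = 0.00399, adjusted p = 0.588 in limma). The second, which carries the same gene symbol, differed by 0.11 ± 0.27 on day 7, by -0.61 ± 0.27 on day 3 and by -0.25 ± 0.19 over both days. On day 3 both were lower in receptive pools without an unadjusted p under 0.05 (-1.20 ± 0.55 for the first). The 95% interval of the second over both days, -0.68 to 0.18, and that of the first, -2.34 to -0.59, met only at their ends. No pool reached more than 4.47 in either, against array medians of at least 6.64.

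On day 7 none of the 11 passed, as none of all probe sets did (0%), and 3 had an unadjusted p under 0.05, against 5.81% of all. The receptive pools were apart from the non-receptive pools on day 7 for both DKK1 probe sets, for 1 of FOXL2 and for SFRP1, that is for 4 of the 11, against 9.23% of all probe sets. Both counts include the second DKK1 probe set, which rests in part on values at the floor. SFRP1 averaged 7.11 ± 0.27 in receptive and 7.61 ± 0.06 in non-receptive endometrium on day 7 (SD, n = 3 pools each), a difference of -0.50 ± 0.32 (SE, adjusted p = 0.828 in limma). On day 3 none of the 11 passed (0.0125% of all did) and none had an unadjusted p under 0.05 (5.26% of all did).

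The remaining members gave receptive minus non-receptive differences, averaged over days, of -0.33 ± 0.23 for SFRP1, -0.22 ± 0.33 for HOXA10, 0.14 ± 0.11 and 0.06 ± 0.10 for MSX1, 0.11 ± 0.26 and -0.07 ± 0.27 for FZD1 and -0.06 ± 0.25 for SFRP2 (SE). All of their 95% intervals included 0. The widest of them, for HOXA10, ran from -0.96 to 0.51.

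**Figure D3:**
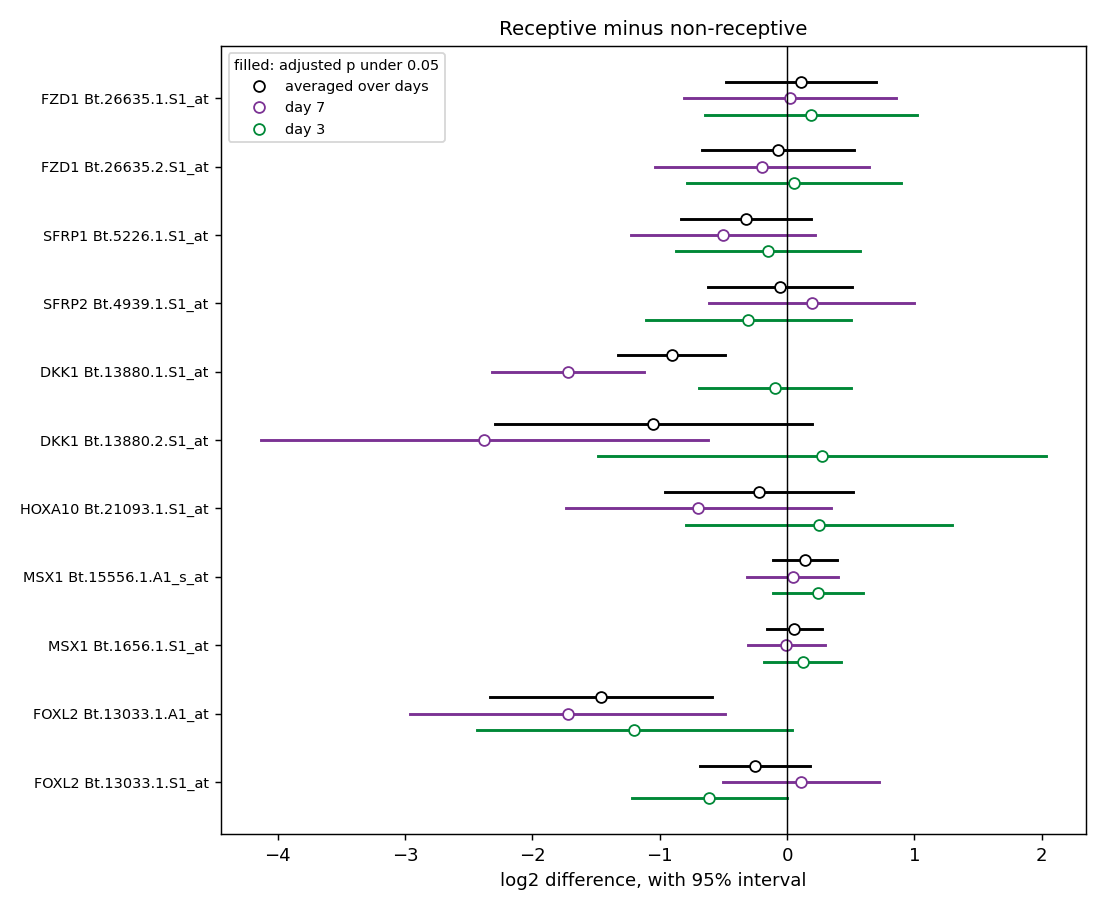
Log2 difference, receptive minus non-receptive (horizontal axis, with 95% intervals), of each of the 11 probe sets, averaged over days, on day 7 and on day 3. No symbol is filled, as no adjusted p was under 0.05, and the first DKK1 probe set lies at -1.72 on day 7 and at -0.09 on day 3.

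The difference between the day changes of receptive and non-receptive endometrium was tested as an interaction. It was -1.63 ± 0.38 for the first DKK1 probe set (SE, unadjusted p = 0.00158, adjusted p = 0.999 in limma). The second DKK1 probe set also had an unadjusted p under 0.05, which rests in part on values at the floor and is not taken as support for the first. These were 2 of the 11, against 3.39% of all probe sets. None of the 11 passed, and none of all probe sets did (0%). SFRP1, with -0.35 ± 0.46, and HOXA10, with -0.95 ± 0.66, were not shown to change differently by receptivity. A pattern noticed after the values were seen was that the receptive day 7 pools lay below all 9 other pools for the first DKK1 probe set and for SFRP1. This held for 1.74% of all probe sets.

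Some cell type markers also differed between days, where 14.2% of all probe sets passed and 9.44% passed as lower. Of 14 stromal fibroblast markers, 3 fell (COL3A1, THY1 and FBLN1) and 1 rose (S100A4) by day 7, with a median change of -0.43. Their mean log2 signal was 7.35 to 8.29 in receptive and 7.61 to 8.36 in non-receptive pools of day 7, against 8.46 to 8.62 in receptive and 7.66 to 9.34 in non-receptive pools of day 3. Summed on the linear scale, the stromal markers were 9432 to 13208 in receptive and 11952 to 14648 in non-receptive pools of day 7, against 12524 to 14822 in receptive and 6566 to 25308 in non-receptive pools of day 3, and none of them was at 0 in any pool. Non-receptive day 3 pool 3, the lowest in the stromal markers on day 3, was also the lowest day 3 pool for SFRP1, HOXA10 and the first DKK1 probe set, and without it the day 7 changes were -1.46 for SFRP1 (adjusted p = 0.00247 in limma) and -1.53 for HOXA10 (adjusted p = 0.0169). Of 11 endothelial markers 3 fell (CDH5, TEK and EMCN), with a median change of -0.17 over the list. VWF, TIE1 and CLDN5 had positive changes that did not pass. The sum of the 11 was 572 to 711 in receptive and 504 to 699 in non-receptive pools of day 7. On day 3 it was 1121 to 1250 in receptive and 649 to 2034 in non-receptive pools, where pool 3 of non-receptive day 3 was again the lowest. EMCN was the brightest of them, at a mean log2 signal of 9.41 on day 3 and 7.71 on day 7, and weighs most in this sum. Of 12 leukocyte markers PTPRC and MS4A1 fell and CD68 rose, with sums of 2059 to 4671 in receptive and 1731 to 4336 in non-receptive pools of day 7, against 1966 to 2212 in receptive and 2056 to 2669 in non-receptive pools of day 3. ITGAM was at 0 in 1 pool. Of 7 smooth muscle markers 1 rose (SMTN), close to the 14.2% share of all probe sets. The other way, 5 of the 7 had negative changes that did not pass, and the median of the list was -0.285. Among these was TAGLN (-0.48, adjusted p = 0.066 in limma), with every day 7 pool below every day 3 pool. All 4 ciliated markers had negative day changes, none of which passed. In bulk tissue, fewer cells of a type and less RNA per cell cannot be told apart, and the part of stromal, endothelial, leukocyte, smooth muscle or ciliated content in the changes of SFRP1 and HOXA10 was not tested.

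Stratified squamous epithelium is a lining of the lower genital tract. Its 7 markers included 4 that were higher on day 7 (KRT5, KRT14, KRT15 and KRT17), where 14.2% of all probe sets passed in either direction. Their mean log2 signal was 6.05 to 7.05 in receptive and 7.16 to 7.35 in non-receptive pools of day 7, against 5.40 to 5.78 in receptive and 5.70 to 5.79 in non-receptive pools of day 3. Summed, they were 1049 to 2696 in receptive and 2466 to 3368 in non-receptive pools of day 7, against 605 to 760 in receptive and 654 to 794 in non-receptive pools of day 3. DSC3 was at 0 in 1 pool. On day 7 the receptive pools lay below the non-receptive pools in the mean log2 signal of these markers, but overlapped with them in the sum. The 4 ciliated epithelium markers were apart on day 7 the other way, with a mean log2 signal of 7.65 to 8.40 in receptive and 7.15 to 7.32 in non-receptive pools and a sum of 836 to 1429 in receptive and 604 to 647 in non-receptive pools. No marker of either list passed between receptive and non-receptive pools of day 7 in limma. The part of squamous or ciliated cells in the day 7 differences of DKK1, SFRP1 and FOXL2 was not tested. None of 12 simple epithelial markers passed.

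**Figure D4:**
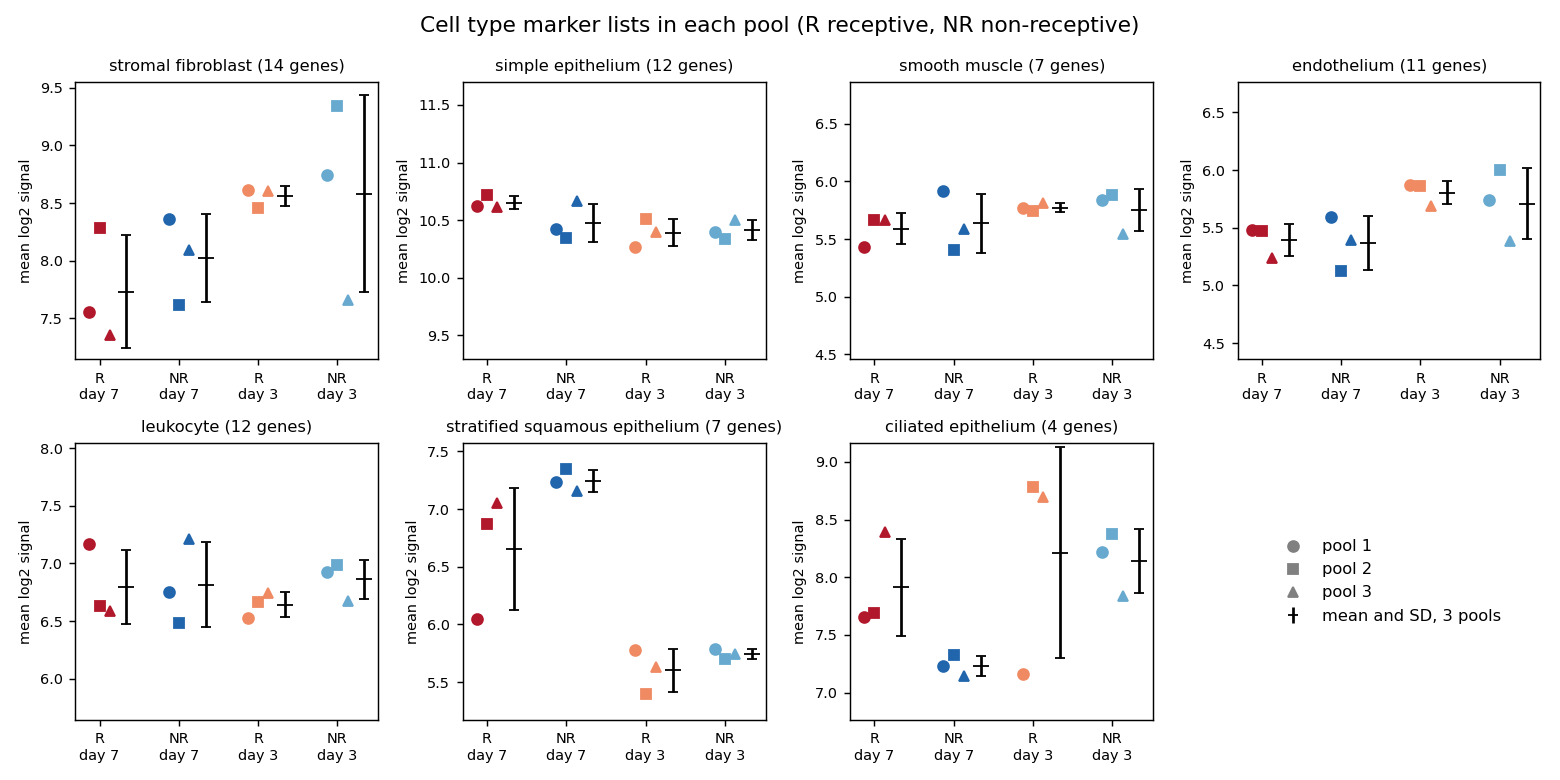
Mean log2 signal (vertical axis) of 7 cell type marker lists in each pool of the receptive (R) and non-receptive (NR) groups of day 7 and day 3, with the mean and SD of 3 pools. Squamous markers are at 6.05 to 7.35 on day 7 and at 5.40 to 5.79 on day 3, and non-receptive day 3 pool 3 is low in stromal fibroblast markers, at 7.66.

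Other genes of the WNT pathway were taken from lists ordered by role, with the probe set of highest mean signal standing for each gene. Of 105 listed genes 52 were measured, and 14 of these passed between days, 11 lower and 3 higher on day 7, where 14.2% of all probe sets passed and 9.44% passed as lower. The same shares apply to the counts by role that follow. The median change of the 52 genes was -0.05, the same as the -0.05 over all probe sets. Differences between the roles were not tested. The changes stood beside 3 stromal and 3 endothelial markers that fell by day 7, and the part of these cells in them was not tested.

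Among ligands and their export, 1 of 4 genes passed. WLS, which carries WNT proteins to the cell surface, had 11.31 ± 0.20 on day 7 and 11.82 ± 0.16 on day 3 (SD, n = 6 pools each), a log2 change of -0.51 (adjusted p = 0.00873 in limma). Of 5 receptors and co-receptors, FZD10 (-1.56, adjusted p = 0.0124) and ROR2, a receptor for WNT5A (-0.86, adjusted p = 0.0215), fell. ROR2 passed in 15 of 19 other settings, with a highest adjusted p of 0.0542.

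Of 8 other inhibitors, 2 fell and 1 rose. SFRP4, of the same family as SFRP1, had 3.56 ± 0.51 on day 7 and 6.63 ± 1.54 on day 3 (SD, n = 6 pools each), a log2 change of -3.08 ± 0.66 (SE, adjusted p = 0.0158 in limma), larger in size than that of any member. DKK3 fell by 2.47 (adjusted p = 0.0169), and its other probe set fell by 1.30 (adjusted p = 0.0302). KREMEN2, a membrane receptor for Dickkopf proteins, rose by 0.57 (adjusted p = 0.0169). SFRP5 had -0.03 ± 0.22 and FRZB -0.26 ± 0.16 (SE), and neither passed.

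Of 8 target and feedback genes, 4 fell and none rose. AXIN2, a direct target of beta-catenin that feeds back on the pathway, averaged 6.20 ± 0.37 on day 7 and 7.55 ± 0.14 on day 3 (SD, n = 6 pools each), a log2 change of -1.35 ± 0.17 (SE, adjusted p = 0.00262 in limma), with every day 7 pool below every day 3 pool. JUN fell by 0.90 (adjusted p = 0.00266), CCND1, a cyclin of the G1 phase, by 0.57 (adjusted p = 0.00579) and APCDD1, a membrane inhibitor of WNT signalling, by 1.57 (adjusted p = 0.0105). Of the 4 other JUN probe sets 3 passed, all lower, whereas the other APCDD1 probe set had -0.46 and did not pass. AXIN2, JUN, CCND1 and APCDD1 passed under all 19 other settings.

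Of 11 genes of the beta-catenin core, 4 had an unadjusted p under 0.05, against 30.8% of all probe sets. Only APC passed (0.57 higher, adjusted p = 0.0284 in limma), its other 2 probe sets had -0.10 and 0.43 and did not, and it passed in 12 of 19 other settings. CTNNB1, which encodes beta-catenin, had -0.20 ± 0.08 (SE, adjusted p = 0.133). None of 8 TCF/LEF factors and co-factors passed, with PYGO2 nearest at -0.28 (adjusted p = 0.0686), and none of 4 genes of the R-spondin axis, with RNF43 nearest at -0.38 (adjusted p = 0.069).

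Of 4 planar cell polarity genes, DAAM1 (-0.44, adjusted p = 0.00801 in limma) and CELSR2 (-0.50, adjusted p = 0.0325) were lower and PRICKLE1 (0.40, adjusted p = 0.0306) was higher on day 7. The other DAAM1 probe set also passed (-0.38). CELSR2 passed in 8 and PRICKLE1 in 9 of 19 other settings, and none of the 3 other PRICKLE1 probe sets passed.

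**Figure D5:**
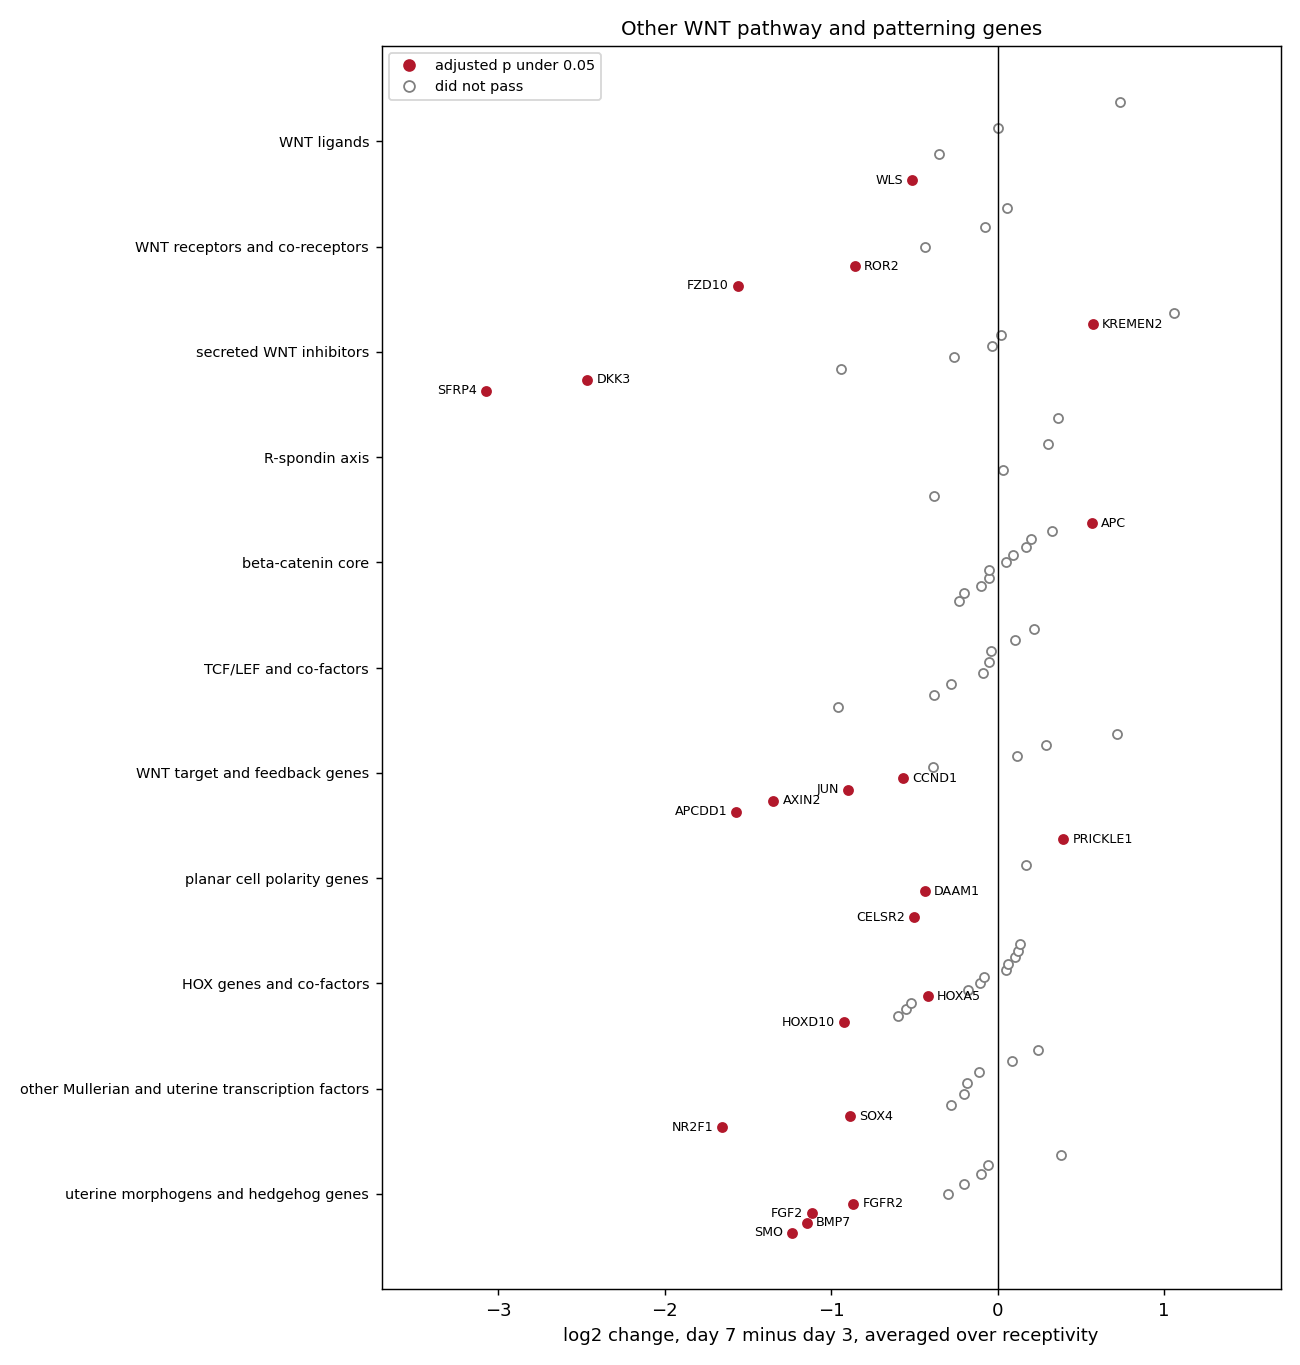
Log2 change, day 7 minus day 3 and averaged over receptivity (horizontal axis), of 52 other WNT pathway genes and 30 other patterning genes, grouped by role, 1 probe set per gene. Filled symbols mark an adjusted p under 0.05, of which 19 lie below 0 and 3 (KREMEN2, APC and PRICKLE1) above it, and SFRP4 lies lowest at -3.08.

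Of 73 listed other patterning genes 30 were measured. Where 14.2% of all probe sets passed between days and 9.44% passed as lower, 8 of these 30 genes passed, all lower on day 7. The 30 genes again stood beside 3 stromal and 3 endothelial markers that fell. Their median change was -0.19. Among 13 HOX genes and co-factors, HOXD10 (-0.93, adjusted p = 0.0181 in limma) and HOXA5 (-0.42, adjusted p = 0.0199) fell, although the other HOXA5 probe set had -0.02 and HOXA5 passed in 17 of 19 other settings. HOXD10 passed in 18 of 19, failing with the actin gap as a covariate (adjusted p = 0.0617). HOXA9, which lies in the same cluster as HOXA10 and is named here after its values were seen, had 6.54 ± 0.57 on day 7 and 7.06 ± 0.64 on day 3 (SD, n = 6 pools each) and did not pass (-0.52, adjusted p = 0.267).

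Among 8 other transcription factors, NR2F1, an orphan nuclear receptor, had 6.78 ± 0.31 on day 7 and 8.44 ± 0.71 on day 3 (SD, n = 6 pools each), a log2 change of -1.65 ± 0.28 (SE, adjusted p = 0.00642 in limma). SOX4 fell by 0.89 (adjusted p = 0.00534). NR2F2, a relative of NR2F1 that acts in uterine stroma in the mouse, had 0.09 ± 0.12 (SE, adjusted p = 0.67).

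Of 9 morphogens and hedgehog genes, 4 fell. SMO, the transducer of hedgehog signals, fell by 1.23 (adjusted p = 0.00481 in limma), BMP7 by 1.15 (adjusted p = 0.0122), FGF2 by 1.12 (adjusted p = 0.0252) and FGFR2 by 0.87 (adjusted p = 0.00672). FGF2 passed in 15 of 19 other settings, with a highest adjusted p of 0.0645, and BMP7 in 18, failing with the actin gap as a covariate (0.0543). The other BMP7 probe set fell by 1.53 and passed, whereas none of the 4 other FGFR2 probe sets and not the other FGF2 probe set passed. The ligand IHH and the hedgehog receptor PTCH1 had -0.30 ± 0.16 and 0.38 ± 0.23 (SE), without passing.

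Between receptive and non-receptive endometrium, averaged over days, none of the 52 WNT pathway genes and none of the 30 patterning genes passed in limma, with 3 and 1 at an unadjusted p under 0.05, where 7.38% of all probe sets had one. The nearest in each list included SOSTDC1, a secreted inhibitor of WNT and BMP signals, at 1.01 ± 0.37 (SE, n = 6 pools per group, adjusted p = 0.662), WNT2B at -0.26 ± 0.10 (adjusted p = 0.662), DAAM1 at -0.18 ± 0.08 (adjusted p = 0.665) and the HOX co-factor MEIS3 at -0.23 ± 0.09 (adjusted p = 0.665). The other nearest genes were LRP5 (0.25), TLE4 (-0.20), NR2F2 (-0.21), IHH (0.23), RNF43 (0.15), CD44 (-0.15) and GSK3A (0.13). Their adjusted p-values were 0.677 to 0.783 in limma. The other probe sets of LRP5 (-0.145) and TLE4 (0.01) had the opposite sign, and those of MEIS3 had -0.09 and 0.01. Those of WNT2B, DAAM1 and NR2F2 kept the sign, and none of these other probe sets passed.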

How the data were processed

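RNA of 12 endometrial pools was hybridised to an Affymetrix bovine array, 1 array per pool. The authors deposited log2 signals for 24128 probe sets. Affymetrix Expression Console, PLIER and GCOS 1.1.1 are listed in the submitters' processing notes without their roles. For the scaling of the arrays no method was given in the sources used here, so a small shift between arrays could move every change. Groups were taken from the sample titles. The 112 control probe sets were left out, and the other values were used as deposited. Of the 24016 probe sets tested, 13292 carried 1 gene symbol in the platform annotation, 86 several and 10638 none, and only those with 1 symbol were named.

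Using limma 3.58.1 (R 4.3.3), a mean per group was estimated from the 12 arrays together, with 7 contrasts, two-sided tests and Benjamini-Hochberg adjustment over all 24016 probe sets at a threshold of 0.05. The fit was tested on simulated data. The member genes and all lists were chosen with earlier results of these data known. All probe sets of the members are reported, and of each wider list and averaged contrast up to 4 passing genes by smallest p, or otherwise the nearest 1 (FRZB, SFRP5, CTNNB1, PTCH1 and HOXA9 were added after their values were seen, as were IHH and NR2F2 for the days). Alternatives were 2 rescalings, 2 filters, another spread estimate, the pool number as a block, the actin gap as a covariate, a fit of only the groups compared, and leaving out each pool. Whether pool numbers pair the days was not settled, and the days were compared as unpaired. The number of pools limits the precision.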

Additional observations from a re-analysis of the deposited data

Results flagged for a closer look

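In 44 sets of 6 pools, those of 1 day or of 1 receptivity class for each of the 11 probe sets, the lowest and highest pool were compared with the rest, and 1 set held a pool that stood apart. For the first MSX1 probe set among the 6 non-receptive pools, day 7 pool 3 had a log2 signal of 11.67 and the next lowest pool 12.07, a gap of 0.741 of the whole range against a limit of 0.625. Chance alone singles out about 1 in 20 such sets. The second MSX1 probe set was also lowest in this pool, at 11.33.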

How the results depend on the processing

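With 3 pools per group, no receptivity difference or interaction of any member passed in limma under any setting tried. Between days, SFRP1 kept its call throughout, and the count of 2 member probe sets became 1 without probe sets of mean signal under 5 (which removed 5 of the 11 members, HOXA10 among them) and 1 to 4 when 1 pool was left out. Within receptive endometrium the count of 0 became 1 under that filter, 2 without probe sets at 0 in any pool, 3 with a trended and robust spread, and 0 to 2 without 1 pool. Within non-receptive endometrium it became 2 with the actin gap as a covariate and 0 to 1 without 1 pool. The 14 other WNT genes became 9 with the actin covariate, among those lost FZD10, ROR2, DKK3, KREMEN2, PRICKLE1 and CELSR2. The causes were not tested.

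Over all probe sets, 3412 passed between days and 1861 to 3617 without 1 pool. In receptive endometrium 471 passed, against 1078 without low signals, 1071 with the trended spread, 705 without values at 0, 155 with the pool number as a block, 51 with the actin covariate, 37 in a fit of only these groups and 9 to 615 without 1 pool (9 without day 3 pool 1). In non-receptive endometrium 596 passed, against 1208, 1136, 760, 314, 917 and 37 under the same settings and 4 to 534 without 1 pool (4 without day 3 pool 1). Higher on day 7 were 33.5% of the 3412 calls, 50.6% after median centring and 44.1% after quantile normalization. Array medians averaged 6.73 on day 3 and 6.66 on day 7, so the balance of lower and higher calls depends on this offset.

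Signs turned only for differences that did not pass. With the actin covariate, day changes became 0.121 (FOXL2, first probe set), -0.464 (DKK1, second), 0.126 and 0.077 (FZD1), and receptivity differences became 0.124 (FOXL2, second), 0.107 (DKK1, second), -0.018 and -0.096 (MSX1), -0.256 (FZD1, first), 0.688 (SFRP2), 0.137 (SFRP1), -0.065 (RNF43), 0.08 (CD44) and -0.157 (IHH). The actin gap differs by receptivity and, on average, by day (1.31 on day 3 and 0.69 on day 7). This covariate therefore takes up part of both differences. Centring and quantile normalization gave day changes of 0.009 and 0.01 for the second FOXL2 probe set. Leaving out 1 pool gave day changes of -0.457 to 0.123 and -0.182 to 0.098 (FOXL2), -0.057 to 0.647 (DKK1, second), -0.218 to 0.067 and -0.247 to 0.096 (FZD1), and receptivity differences of -0.024 to 0.273 and -0.217 to 0.126 (FZD1) and -0.206 to 0.152 (SFRP2).

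Deviations of same-numbered pools had a mean correlation of 0.012 over 18 pairs (-0.443 to 0.384), against -0.007 over 36 other pairs. Most of these pairs join receptive to non-receptive pools, which would not share animals. Between the days, pools 1, 2 and 3 correlated at 0.347, 0.069 and 0.332 in receptive endometrium, against -0.415 to 0.117 for unlike numbers. In non-receptive endometrium they correlated at -0.132, 0.127 and -0.067, against -0.286 to 0.31. Whether the numbers pair the days was not settled. With the replicate number as a block 2 member probe sets passed between days (SFRP1, adjusted p = 0.0177, and HOXA10, 0.036), and 0 in each other comparison.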
